A study of Danio rerio with 12 samples.

Results

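The genes of the cytosolic translation factors were followed in the zebrafish pineal gland, the light-sensitive, melatonin-producing gland on top of the brain. A probe set was taken when the platform annotation gave it exactly 1 gene symbol, that symbol began with eif or eef, and its mean deposited signal over the 12 arrays was 58 or more. This gave 68 probe sets for 60 of the 64 genes with such a symbol, out of 15502 probe sets on the array that are not Affymetrix controls. There were 80 eif and eef probe sets with 1 symbol, and the 12 left out had mean signals under 58. The members nearest the threshold were eif6 at 84.9, eif2b1 at 89.96 and eif2b3 at 92.5, and the nearest left out were eif4e1b at 57.0, a further eif5a2 probe set at 47.7 and eef1akmt2 at 47.2. A further 2 probe sets that pair an eif or eef symbol with another gene were not used. By name the members form 5 eif1, 11 eif2, 14 eif3, 21 eif4, 6 eif5, 1 eif6 and 10 eef probe sets.

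Each of the 12 arrays held RNA from 1 pool of 12 glands. In the light group, Tg(aanat2:EGFP)Y8 zebrafish of both sexes, aged 0.5 to 1.5 years, were exposed to light of 12 W/m2 during the last 1 h before the glands were taken. In the dark group, fish of the same line, ages and sexes got no light pulse. All fish had been kept at 28 °C in 12 h of light and 12 h of darkness, and all were moved to constant darkness on the evening before. In this line the regulatory regions of aanat2, which encodes the enzyme that times melatonin production, drive a green fluorescent protein in the gland, and the signal guided the dissection. Each group had 1 pool every 4 h of circadian time (CT, in hours) from CT2 to CT22, so the 6 times stand in for replicates and p-values measure the spread over times and pools.

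Translation starts when eIF2, a GTP-binding protein, brings the initiator tRNA to the small ribosomal subunit, where eIF1A and the many-subunit eIF3 help to position it. The eIF4 proteins bring the mRNA: eIF4E holds the 5' cap, eIF4G is the scaffold, and the helicase eIF4A opens the leader, while eIF4E-binding proteins block eIF4E until the kinase complex mTORC1 phosphorylates them. eIF5 and eIF5B complete the joining of the large subunit, and eEF1A and eEF2 then deliver aminoacyl-tRNAs and move the ribosome along. Much of this machinery is controlled by phosphorylation, which transcript levels do not show.

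Signals are linear MAS5 values that the authors scaled to a common trimmed mean. The Affymetrix spike-in transcripts bioB, bioC, bioD and cre, read by 18 probe sets, had mean log2 signals of 10.30 to 11.20 on the 6 light arrays, against 9.58 to 9.83 on the dark arrays of CT2 to CT18 and 10.62 on the dark array of CT22. The spike-in level therefore separates the light arrays from all dark arrays but 1, and its part in any light difference below cannot be told apart from the light pulse except through CT22. Of 10 pineal photoreceptor markers measured, which include exorh and aanat2, the summed signal was 26355 to 37224 on light arrays and 22129 to 31051 on dark arrays, and exorh, the opsin of the gland, read 858 to 1966 in light and 720 to 2081 in the dark. All pools were whole glands, so fewer cells of a type and less RNA per cell cannot be told apart.

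After the 1 h light pulse a light difference was called for only 1 translation factor probe set. The light difference is the mean of the 6 within-time differences, light minus dark, of log2(signal + 13), ± SE. A probe set is called when its limma adjusted p, over all 9301 probe sets that passed the filter on low values, is under 0.05. All 68 members passed that filter. The test called 1 of the 68 members (1.47%), eif3ha, which was lower in light, against 2.31% of all 9301 probe sets tested, of which 1.58% were higher and 0.731% lower in light. At an unadjusted p under 0.05 there were 12 members (17.6%), 6 higher and 6 lower in light, against 17.5% of all probe sets tested. The difference was negative for 40 members (58.8%) and positive for 28, against 46.9% negative and 53.1% positive over all probe sets tested.

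The sizes were also close to the rest of the array. The median light difference was -0.06 over the members and 0.02 over all probe sets tested, and the median size without regard to sign was 0.19 in both. By factor group the median was 0.02 for eif1, -0.06 for eif2, -0.07 for eif3, 0.09 for eif4, -0.22 for eif5 and -0.06 for eef. These signs held after quantile normalization except that of eif1, which became -0.10, and with the spike-in class as a term the eef median was 0.14. A member kept 1 sign at all 6 times in 5 cases (7.35%), namely eif1axb, eif3ha, eif4a1b, eif4e3 and eif4ebp3l, against 10.3% of all probe sets tested. In no member (0 of 68) did the 6 light signals lie wholly apart from the 6 dark signals, against 1.23% of all probe sets tested. The mean log2 value of the 68 members was 8.61 to 8.76 on light arrays and 8.64 to 8.77 on dark arrays.

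**Figure D1:**
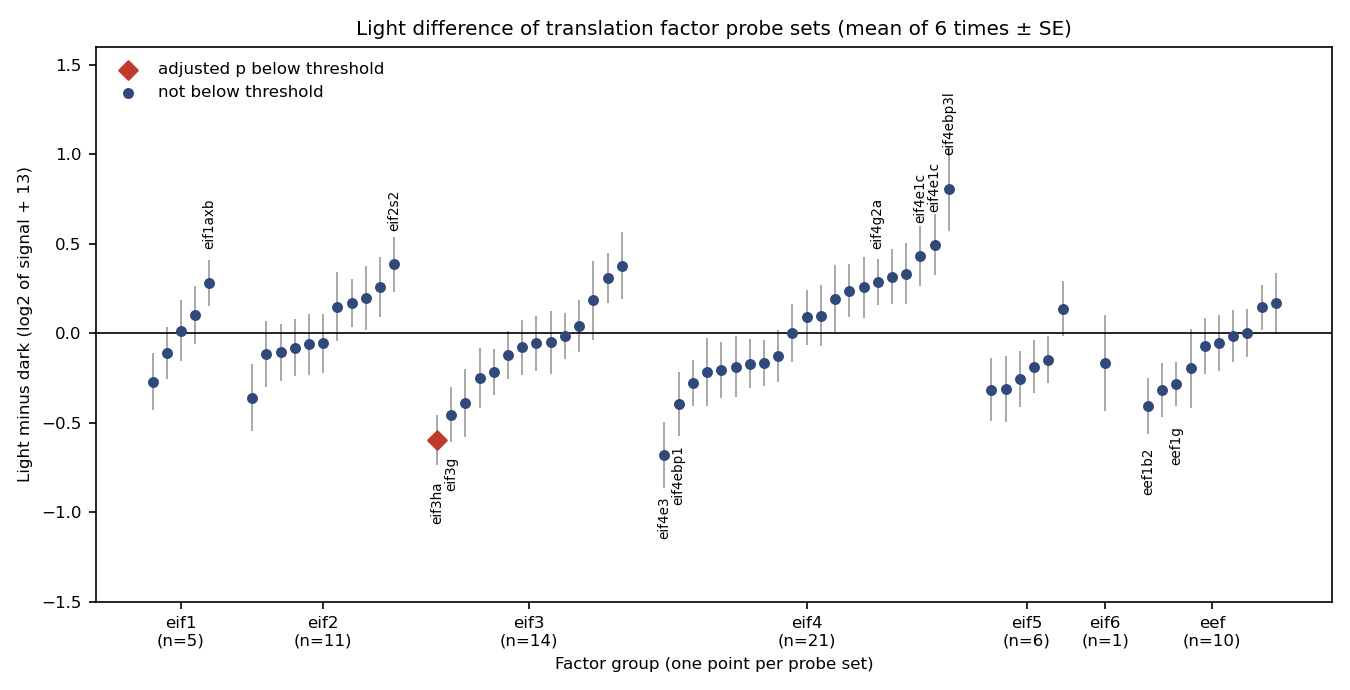
Light difference (mean of 6 within-time differences of log2(signal + 13), light minus dark) of each of the 68 probe sets, ordered within factor groups; bars are ± SE, and names mark probe sets with an unadjusted limma p under 0.05. Only eif3ha (red diamond, -0.59) had an adjusted p under 0.05, and eif4ebp3l (0.81) and eif4e3 (-0.68) lie at the 2 ends of the eif4 group.

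eIF3 is the large scaffold on the small subunit that links it to eIF4G, and 14 of its subunit genes were measured, 4 with a positive and 10 with a negative light difference. The single called member encodes its subunit h. eif3ha had signals of 129, 155, 174, 197, 173 and 120 in light from CT2 to CT22, against 250, 243, 302, 285, 249 and 153 in the dark. Light was lower at all 6 times, and the groups overlap only through the dark pool of CT22. The difference was -0.59 ± 0.14, which is 1.51-fold higher in the dark, with a limma adjusted p of 0.0494. The call sits at the threshold: the adjusted p was 0.0416 without the CT22 pair and 0.0948 to 0.185 without any single other pair. A fit with the spike-in class of the arrays also took a 24 h cosine and sine in place of the 6 time points. Its difference was -0.17 with a limma adjusted p of 0.989. With the spike-in level as a covariate the difference was -0.57 with a limma adjusted p of 0.484.

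No other eIF3 gene was called. eif3g, an RNA-binding subunit, had a lowest, median and highest signal of 719, 998 and 1591 in light and 1251, 1461 and 1742 in the dark. The groups overlap, with light lower at every time but CT18, and the difference was -0.46 ± 0.15 (limma adjusted p = 0.151). eif3c, part of the core, had 577, 659 and 755 in light and 324, 467 and 896 in the dark, and differed by 0.38 ± 0.19 (limma adjusted p = 0.324). Its light signal was above the dark one from CT6 to CT18 but below it at CT22, where the difference was -0.55. eif3i differed by 0.31 ± 0.14, with light higher at 5 of 6 times, and eif3f by -0.39 ± 0.19, most of it from CT6 at -1.45. The brightest eIF3 probe set, that of eif3ba, had 1341, 1541 and 1700 in light and 1364, 1561 and 1773 in the dark, a difference of -0.02 ± 0.13 that became 0.04 after quantile normalization. The groups of eif3ba overlap almost completely.

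The number of the 14 genes with a positive difference was 5 at CT2, 3 at CT6, 4 at CT10, 8 at CT14, 9 at CT18 and 3 at CT22. The remaining subunits, eif3d, eif3ea, eif3eb, eif3hb, eif3ja, eif3jb, eif3m and eif3s10, had differences between -0.25 for eif3d and 0.18 for eif3jb. None of these had an unadjusted limma p under 0.05.

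**Figure D2:**
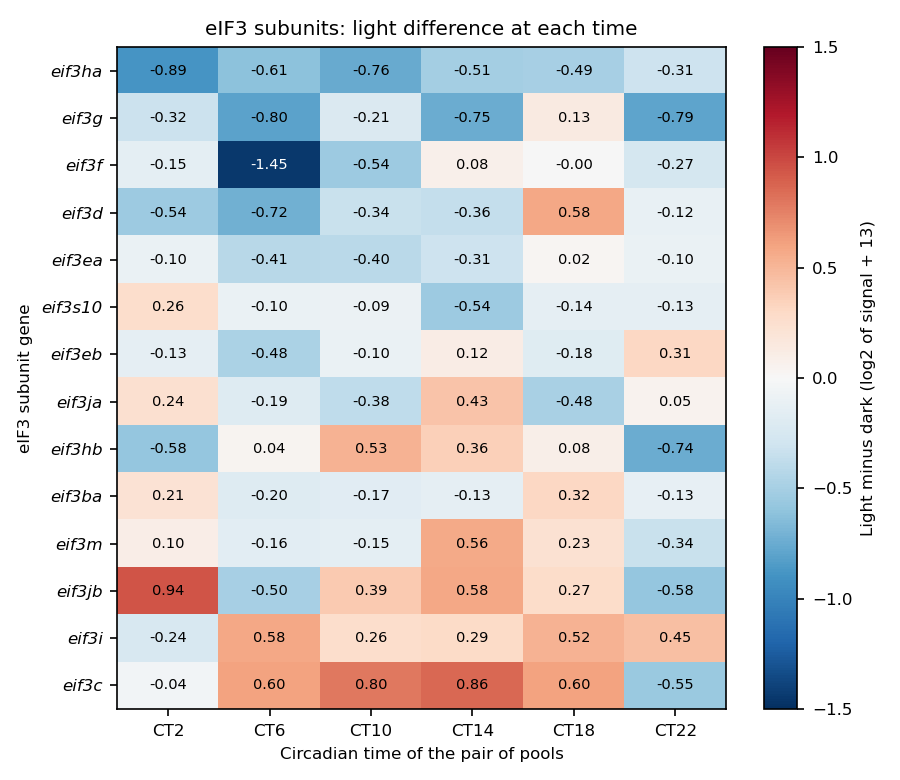
Light minus dark difference of log2(signal + 13) for the 14 eIF3 subunit genes (vertical) at each circadian time in hours (horizontal), blue for lower and red for higher in light. The top line, eif3ha, is blue at all 6 times (-0.89 to -0.31), while eif3c at the bottom is red from CT6 to CT18 and blue at CT22 (-0.55).

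The widest light differences among the members lay in the cap-binding eIF4E genes and the proteins that bind them, and none of these was called. eif4e3, known in mammals as an atypical cap-binding protein, had signals of 503, 439, 474, 425, 281 and 401 in light from CT2 to CT22, against 532, 929, 717, 833, 731 and 419 in the dark. Light was lower at all 6 times, by 0.08 at CT2 and 0.06 at CT22 but by 1.34 at CT18, and the groups overlap through the dark pool of CT22. The difference of eif4e3 was -0.68 ± 0.18 with a limma adjusted p of 0.0790. Without the CT22 pair it was -0.80, with a limma adjusted p of 0.0411. With the spike-in level as a covariate it was -0.15 (limma adjusted p = 0.910), and with the spike-in class as a term -0.20 (adjusted p = 0.989). A further eif4e3 probe set, with a mean signal of 17.1, was left out.

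Of the cap-binding genes with a positive difference, eif4e1c, a paralog found in fish, was read by 2 probe sets. The brighter had a lowest, median and highest signal of 302, 345 and 459 in light and 184, 250 and 328 in the dark. The other had 199, 276 and 326 in light and 139, 204 and 229 in the dark. The groups of both overlap, and in both light was above dark at 5 times and below it at CT22. The differences were 0.49 ± 0.17 and 0.43 ± 0.17, with limma adjusted p of 0.161 and 0.212, and the 2 probe sets had the same sign at 6 of 6 times. On the brighter one the difference was 0.14 with the spike-in level as a covariate and 0.05 with the spike-in class as a term. eif4ea, the canonical eIF4E, had 245, 281 and 328 in light and 296, 321 and 339 in the dark, a difference of -0.17 ± 0.13. eif4e2rs1, of the 4EHP class that competes for the cap, differed by 0.10 ± 0.17, with light lower from CT2 to CT10 and higher from CT14 to CT22.

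The 3 eIF4E-binding repressors had a positive, a negative and a near-zero light difference, none called. eif4ebp3l, described in zebrafish muscle as a gatekeeper of mTORC1-dependent translation, had signals of 111, 144, 154, 189, 282 and 130 in light from CT2 to CT22, against 88.2, 114, 70.0, 77.0, 61.9 and 122 in the dark. Light was higher at all 6 times, by 1.98 at CT18 but by 0.09 at CT22, and the groups overlap. The difference of 0.81 ± 0.24, which is 1.75-fold, had a limma adjusted p of 0.1002. It was 0.14 with the spike-in level as a covariate (limma adjusted p = 0.937) and 0.32 with the spike-in class as a term (adjusted p = 0.989). Several marker lists of other cell types were also mostly positive in light and others mostly negative, counted without the filter on low values. Of 11 skeletal muscle markers measured, 10 had a positive light difference (median 0.52), and their summed signal was 875 to 2080 on light arrays and 503 to 1027 on dark arrays, with none at 0. Of 7 leukocyte markers 7 were positive (median 0.33), and of 16 skin and epithelium markers 13 were (median 0.25). Only 1 of 7 red blood cell and 4 of 11 brain neuron markers were positive. The same held for 1 of 5 connective tissue and 1 of 3 endothelium markers. Glia had 3 of 5 positive and oligodendrocytes 3 of 6. Of the gland's own 10 photoreceptor markers, 7 were positive (median 0.17). The median signal of an array was also higher in light at all 6 times. It was 99.5 against 70.3 at CT14, but 96.4 against 94.7 at CT22. The part of that shift in these marker counts was not tested. acta1a, skeletal muscle actin, was called higher in light (1.30 ± 0.21, limma adjusted p = 0.00872). Its mean log2 value was 7.34 in light but 6.05 in the dark, under the filter value of 6.16. It therefore passed the filter only through the light arrays. Among the red blood cell markers, cahz was called lower in light (-0.79 ± 0.16, limma adjusted p = 0.0285). Light was lower for cahz at all 6 times, with overlapping groups. The part of RNA from other cell types in the eif4ebp3l difference was not tested.

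eif4ebp1 had a lowest, median and highest signal of 209, 311 and 367 in light and 298, 395 and 495 in the dark. The groups overlap, and the difference was -0.39 ± 0.18 (limma adjusted p = 0.277), with light lower at 4 of 6 times. eif4ebp2, the brightest eif4 probe set, had 1073, 1803 and 1971 in light and 1507, 1644 and 1958 in the dark, a difference of 0.00 ± 0.16 with a 95% interval of -0.35 to 0.36. Its lowest light signal, on the array of CT14, lay below every dark signal, with the next light signal at 1598. That single array pulls the mean difference of eif4ebp2 down. eif4enif1, which binds eIF4E and keeps it out of translation, had 118, 194 and 208 in light and 95.2, 144 and 209 in the dark, and differed by 0.32 ± 0.15 (limma adjusted p = 0.312). Light was above dark for eif4enif1 at every time but CT22.

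**Figure D3:**
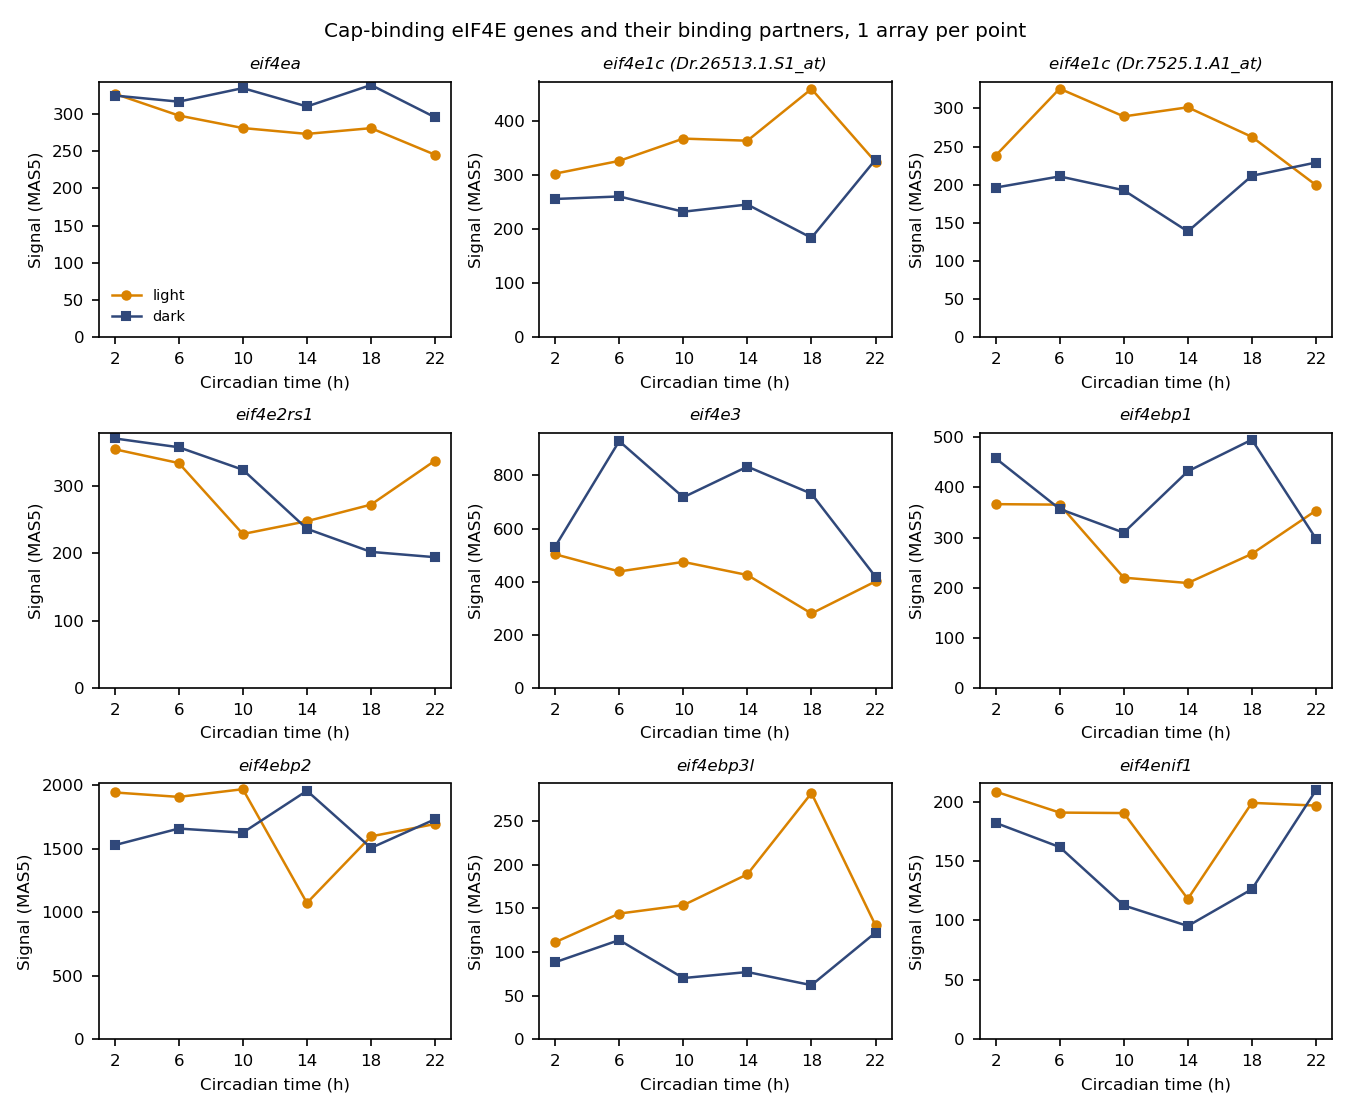
MAS5 signal (vertical, linear, from 0) against circadian time in hours for the cap-binding eIF4E genes and their partners; light in orange circles, dark in blue squares, 1 array per point. For eif4e3 the light line lies under the dark line, for eif4ebp3l and both eif4e1c probe sets above it from CT2 to CT18, and in each of these the lines come close at CT22.

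The rest of the eIF4 group gave smaller differences. The helicase gene eif4a1b had 527, 590 and 773 in light and 583, 770 and 875 in the dark. The groups overlap, light was lower at all 6 times, though both read 773 at CT6 when rounded, and the difference was -0.28 ± 0.13 (limma adjusted p = 0.287). eif4a2 differed by -0.17 ± 0.14, and the 2 probe sets of eif4a1a had mean differences of 0.19 ± 0.19 and -0.22 ± 0.19, with the same sign at 5 of 6 times and opposite signs at CT22 (0.91 and -0.22). eif4a3, the helicase of the exon junction complex, differed by -0.13 ± 0.14, and the helicase cofactors eif4bb and eif4h by 0.24 ± 0.15 and 0.09 ± 0.15. Among the scaffolds, eif4g2a lacks the eIF4E-binding part of eIF4G in mammals. Its 2 probe sets differed by 0.29 ± 0.13 (limma adjusted p = 0.277) and 0.33 ± 0.17, while eif4g2b differed by -0.21 ± 0.16, eif4g3a by -0.19 ± 0.17 and eif4g3b by 0.26 ± 0.17.

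The factors that carry the initiator tRNA and scan for the start codon showed no called light difference. eif2s2, the beta subunit of eIF2, had a lowest, median and highest signal of 275, 325 and 379 in light and 165, 240 and 390 in the dark. Light was above dark at every time but CT22, the groups overlap, and the difference was 0.39 ± 0.16 (limma adjusted p = 0.227). With the spike-in level as a covariate the value for eif2s2 was -0.06, so its sign depends on that term. The alpha subunit genes eif2s1a and eif2s1b differed by -0.11 ± 0.18 and -0.08 ± 0.16. Of the 5 genes of eIF2B, the exchange factor that reloads eIF2 with GTP, 3 had a positive and 2 a negative difference. eif2b2, the brightest eif2 probe set, had 406, 572 and 735 in light and 437, 796 and 1057 in the dark, with overlapping groups and a difference of -0.36 ± 0.19 (limma adjusted p = 0.340). eif2b1 differed by 0.26 ± 0.17, eif2b3 by 0.20 ± 0.18, eif2b4 by -0.06 ± 0.17 and eif2b5 by 0.15 ± 0.19. eif2a and eif2d, which can bring the initiator tRNA without eIF2, differed by -0.06 ± 0.17 and -0.11 ± 0.16.

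eIF1A, which helps the small subunit scan, is encoded by eif1axa and eif1axb, and the mean differences of the eif1axb probe sets had different signs. The brightest had a lowest, median and highest signal of 643, 723 and 1018 in light and 724, 889 and 1211 in the dark, a difference of -0.27 ± 0.16. Another had 415, 563 and 602 in light and 356, 413 and 572 in the dark, with light higher at all 6 times and a difference of 0.28 ± 0.13 (limma adjusted p = 0.278). The groups overlap in both, and the 2 probe sets had the same sign at 1 of 6 times. The remaining eif1axb probe set differed by 0.10 ± 0.16. The 2 probe sets of eif1axa differed by -0.11 ± 0.15 and 0.02 ± 0.17.

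The 6 eif5 probe sets, for the initiation factors eIF5 and eIF5B and for eIF5A, had 5 negative and 1 positive difference. None had an unadjusted limma p under 0.05. eif5a, whose hypusine-bearing product helps peptide bonds form, had 2291, 3148 and 4234 in light and 2744, 3378 and 5351 in the dark on its brighter probe set. The groups overlap and the difference was -0.19 ± 0.15, and the second eif5a probe set gave -0.15 ± 0.13. eif5a2 had 355, 689 and 869 in light and 666, 740 and 1045 in the dark, a difference of -0.32 ± 0.18 in which CT22 alone was -1.04. The 2 probe sets of eif5b, the GTPase of subunit joining, differed by -0.26 ± 0.16 and -0.31 ± 0.19, with the same sign at only 2 of 6 times. eif5, which triggers GTP hydrolysis by eIF2, differed by 0.14 ± 0.16. eif6, which keeps free large subunits apart from small ones, had 12.7, 96.5 and 105 in light and 63.9, 84.6 and 110 in the dark. Its difference of -0.17 ± 0.27 came from the single low light array of CT6, and without that pair it was 0.15.

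The elongation factors include the brightest members. eef1a1l1, an eEF1A gene, had a lowest, median and highest signal of 6421, 8399 and 11238 in light and 7679, 8480 and 9664 in the dark. The groups overlap fully, and the difference was 0.00 ± 0.14 with a 95% interval of -0.29 to 0.30, and -0.14 after quantile normalization. eef1a1a differed by 0.14 ± 0.13. Of the exchange factor eEF1B, which recycles eEF1A, eef1b2 and eef1g had negative and eef1db a positive difference. eef1b2 had 1143, 1539 and 2036 in light and 1117, 1980 and 2941 in the dark, with light lower from CT2 to CT18, overlapping groups and a difference of -0.41 ± 0.16 (limma adjusted p = 0.206). eef1g had 1617, 2294 and 2866 in light and 2072, 2818 and 3104 in the dark, with light lower at every time but CT18. It differed by -0.28 ± 0.12 (limma adjusted p = 0.268), or by -0.06 with the spike-in class as a term, and its groups overlap.

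eef1db differed by 0.17 ± 0.17 and eef1e1, a scaffold of the complex of tRNA synthetases in mammals, by -0.32 ± 0.15 (limma adjusted p = 0.303). eef1e1 had 405, 434 and 501 in light and 364, 576 and 700 in the dark, with light lower by 0.35 to 0.54 from CT2 to CT18 and higher by 0.40 at CT22. The translocase genes eef2b and eef2l2 differed by -0.01 ± 0.15 and -0.05 ± 0.16. eef2k, the kinase that inhibits eEF2, differed by -0.07 ± 0.15. eef1a1b read 991 on the dark array of CT18 and 154 to 458 on the other 11. On that same array the 10 brain neuron markers that passed the filter on low values summed to 19419. The 5 glia markers that passed it summed to 14174 and the 6 oligodendrocyte markers to 3165. Each sum was the highest of the 12 arrays. The neuron sum was also 17937 on the light array of CT22 and 16395 on the dark array of CT14. On those arrays eef1a1b stayed within 154 to 458. The part of those cells in the eef1a1b value was not tested.

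**Figure D4:**
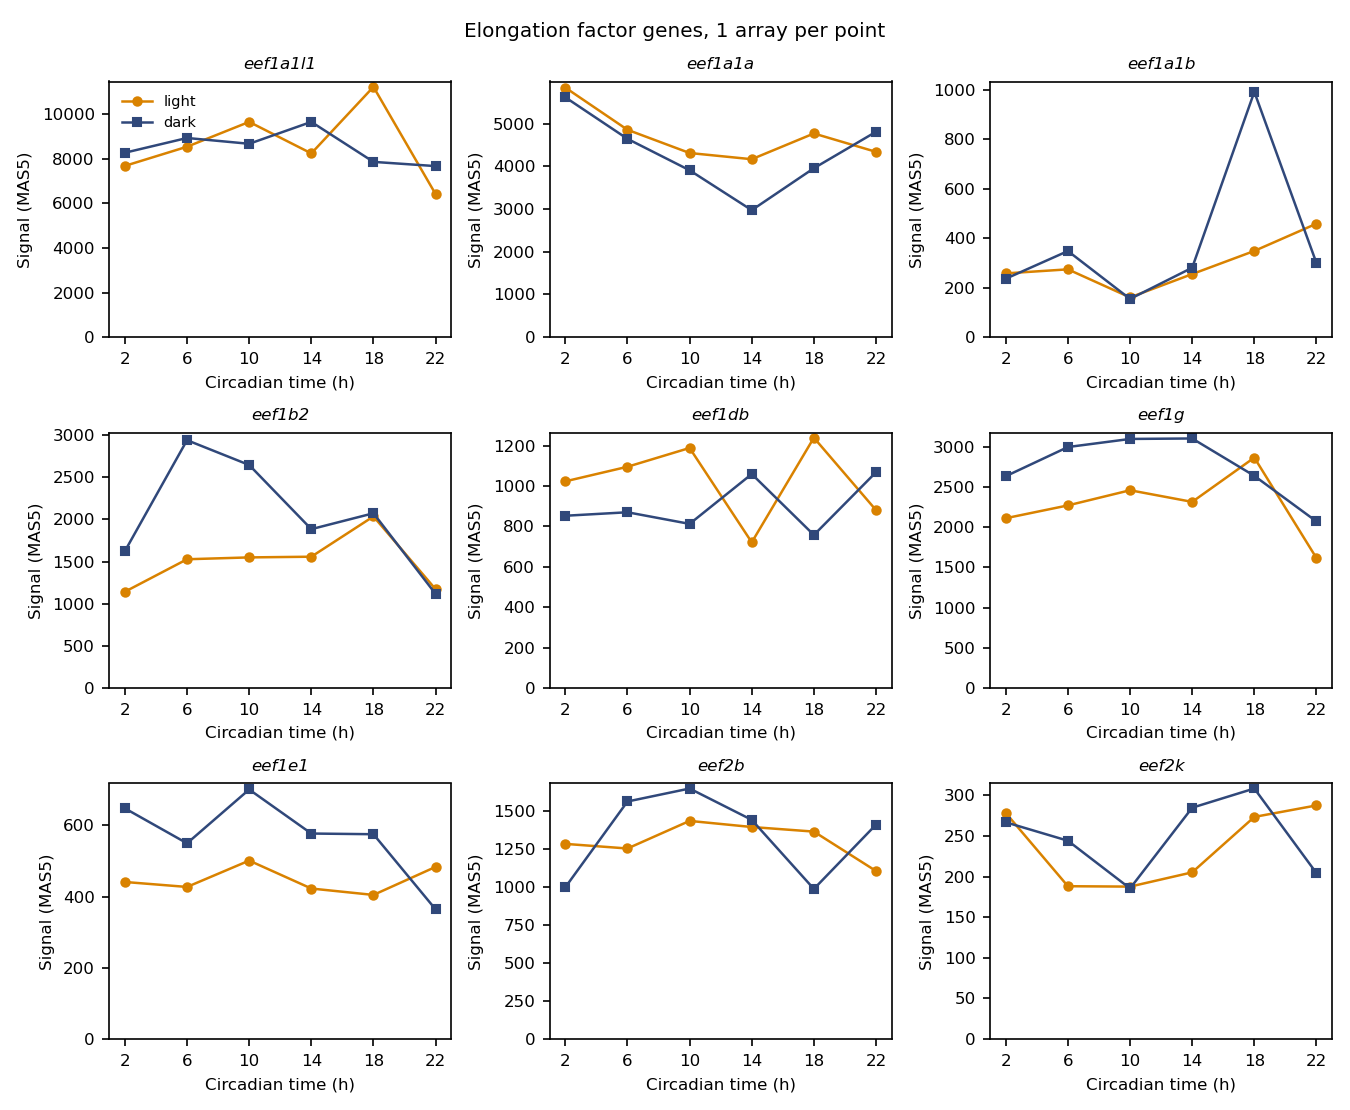
MAS5 signal (vertical, linear, from 0) against circadian time in hours for 9 of the 10 elongation factor probe sets; light in orange circles, dark in blue squares, 1 array per point. The lines of eef1a1l1 cross repeatedly, eef1g and eef1e1 are lower in light at 5 of 6 times, and eef1a1b has a single high dark array at CT18 (991).

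Zebrafish carry duplicated copies of many of these genes, and 9 pairs of a and b copies could be compared within the same arrays. The difference of eif3ha minus that of eif3hb was -0.54, against -0.59 for eif3ha and -0.05 for eif3hb alone (exact sign-flip test over 6 times, two-sided p = 0.0938). The contrast of eif4g2a with eif4g2b was 0.49 and that of eif4g3a with eif4g3b was -0.44, each with an exact p of 0.0625. For eif4a1a against eif4a1b it was 0.47 (exact p = 0.125), but 0.06 with the other eif4a1a probe set. No pair fell under 0.05, and the smallest Benjamini-Hochberg value over the 9 pairs was 0.281. The smallest p this test can give is 0.0312, so 1 pair alone could not fall under 0.05 after adjustment over 9 pairs. Copies of 1 gene can cross-hybridise, which these files do not measure.

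At CT22 the dark pool stood near the light pools for most members that set the pattern. Of the 12 members with an unadjusted limma p under 0.05 for light, the dark signal of CT22 was the one nearest the light side among the 6 dark signals in 10 (83.3%), against 14 of the other 56 (25.0%). Over all probe sets tested the same held for 55.8% of those with such a p and 32.8% of the others. These shares are a description, since a dark pool that lies toward light also enters the p. The CT22 difference was -0.31 for eif3ha, -0.06 for eif4e3, 0.09 for eif4ebp3l, -0.02 and -0.19 for the eif4e1c probe sets, -0.04 for eif2s2 and 0.07 for eef1b2. It was 0.24 for eif4ebp1. For eif4ebp1, eif2s2, eef1b2 and both eif4e1c probe sets the sign at CT22 was the opposite of that of the mean. It was at least as large as the mean for eif3g at -0.79, eef1g at -0.36, eif4g2a at 0.29 and the eif1axb probe set at 0.45. The dark array of CT22 is also the one dark array in the higher spike-in class, and the part of that class in these values was not tested.

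No member had a called time-of-day pattern (0 of 68), against 1.98% of all probe sets tested, by a limma test of a 24 h cosine and sine over the 12 arrays. At an unadjusted p under 0.05 there were 12 members (17.6%), against 15% of all probe sets tested. The median amplitude, from mean to peak on the log2 scale, was 0.16 over the members and 0.20 over all probe sets tested. The nearest to the threshold was eif2ak3, which encodes PERK, the kinase that phosphorylates eIF2 under stress of the endoplasmic reticulum. Its signals from CT2 to CT22 were 443, 661, 695, 418, 422 and 414 in light, against 423, 482, 610, 458, 321 and 393 in the dark. Both groups were highest at CT10 and both lowest in the subjective night. The fitted amplitude was 0.37 ± 0.09, with a peak at CT8.2 and a limma adjusted p of 0.0986. Further eif2ak3 probe sets had mean signals of 13.6 and 33.6, against 478 for this one, and were left out. Of 13 skin and epithelium markers that passed the filter, 6 were called for time of day. Their summed signal was highest at CT10 in light (10292) and at CT14 in the dark (6909). The part of those cells in the eif2ak3 pattern was not tested.

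Of these 12 members, none of them called, 8 had their fitted peak from CT20.0 through subjective dawn to CT4.3, and 4 from CT8.2 to CT12.4. These ranges were set by the peaks themselves, without a share over all probe sets, so no clustering is read from them. eif4enif1 peaked at CT1.1 with an amplitude of 0.37 ± 0.10 (limma adjusted p = 0.162), and its lowest signal fell at CT14 in both light and dark. The eif1axb probe set that was higher in light at all 6 times had 0.29 ± 0.08 and CT1.3, and eef1a1a 0.28 ± 0.08 and CT1.9. The brightest eif1axb probe set had only 0.05 ± 0.11 and the remaining one 0.02 ± 0.11. For eif1axa the brighter probe set had 0.32 ± 0.09 and CT21.6, but the other had 0.09 ± 0.12. At CT2 eef1a1a read 5849 in light and 5621 in the dark, and at CT14 it read 4170 in light and 2976 in the dark. eif4e2rs1 had 0.32 ± 0.11 with a peak at CT4.3. By contrast eif3ha peaked at CT11.7 with 0.31 ± 0.10 (limma adjusted p = 0.219). The widest amplitude, 0.60 ± 0.19 at CT20.0 for eef1a1b, came with the single high dark array of CT18 and had a limma adjusted p of 0.233.

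**Figure D5:**
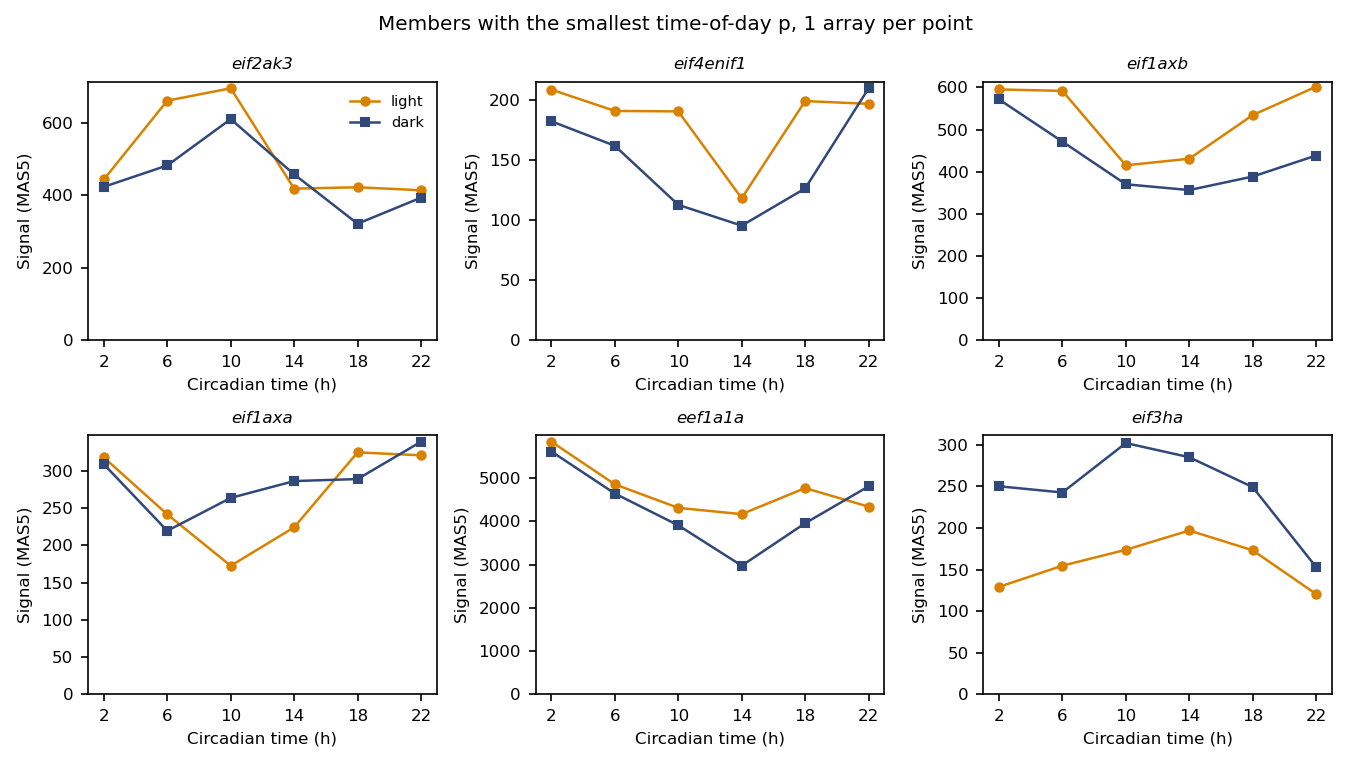
MAS5 signal (vertical, linear, from 0) against circadian time in hours for the 6 members with the smallest time-of-day p, none of them called; light in orange circles, dark in blue squares, 1 array per point. eif2ak3 is highest at CT10 in both groups, eif4enif1 lowest at CT14 in both, and the light line of eif3ha lies under its dark line throughout.

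The light difference was not shown to vary with time of day in any member. The limma test of light against the cosine and sine together called 0 of 68 members, against 0% of all probe sets tested, and the smallest adjusted p was 0.502 among the members and 0.386 over all. In simulated data this test recovered only 25.5% of changes with an amplitude of 1 log2 unit and 0% of those of 0.5. At an unadjusted p under 0.05 there were 5 members (7.35%), eif3c, eif3hb, eif4a1a, eif4e2rs1 and eif4ebp3l, against 9.29% of all probe sets tested. For eif4ebp3l the mean light difference was 1.08 in subjective night and 0.54 in subjective day, and for eif4e2rs1 it was 0.41 in subjective night and -0.21 in subjective day. The percentage of members with a positive light difference was 50% at CT2, 33.8% at CT6, 47.1% at CT10, 50% at CT14, 61.8% at CT18 and 38.2% at CT22. Over all probe sets tested it was 49.1%, 51.2%, 53.6%, 54.8%, 54.5% and 47.4% at the same times.

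Genes around the factors were described from lists of their pathways. Of 13 genes of mTORC1, eIF4E and eIF2 control that passed the filter, 5 had a positive and 8 a negative light difference and none was called. pdcd4a, whose product in mammals blocks eIF4A, had a lowest and highest signal of 880 and 1355 in light and 1232 and 1719 in the dark. Light was lower at all 6 times for pdcd4a, with overlapping groups, and the difference was -0.49 ± 0.14 (limma adjusted p = 0.0863). rheb, the GTPase that switches mTORC1 on, was called for time of day, peaking at CT1.0 with an amplitude of 0.42 ± 0.09 (limma adjusted p = 0.0427). Of 8 eIF2 stress-response genes 4 were positive and 4 negative, with atf4a at 0.44 ± 0.14 and higher in light at all 6 times (limma adjusted p = 0.133), though by 0.01 at CT22. atf5b, at -0.54 ± 0.22 (limma adjusted p = 0.229), read 1066 on the dark array of CT18, the array on which eef1a1b was also high.

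Of 16 cytosolic aminoacyl-tRNA synthetase genes and their scaffolds, 5 were positive and 11 negative, with aars1 at -0.37 ± 0.14 and the scaffold aimp2 at 0.34 ± 0.13 (limma adjusted p = 0.193 and 0.209). The 6 genes of termination and recycling split 3 to 3, with mcts1, a partner of DENR in recycling, at 0.30 ± 0.14 and gspt1l at -0.28 ± 0.17. Of 7 cap and poly(A) partners 3 were positive and 4 negative, with ddx3xa at 0.30 ± 0.15 and ncbp2 at 0.38 ± 0.20. Of the enzymes that modify eIF5A and eEF2, dohh was at 0.11 ± 0.14, dhps at -0.31 ± 0.22 and dph7 at -0.27 ± 0.23. The mitochondrial factors gave the only light call of these lists. mtif3, a mitochondrial initiation factor, had signals of 184, 163, 121, 246, 249 and 210 in light from CT2 to CT22, against 39.2, 90.8, 90.02, 52.4, 84.0 and 130 in the dark. Light was higher at all 6 times, by 0.64 at CT22, and the groups overlap through light CT10 and dark CT22. The difference was 1.18 ± 0.23 (limma adjusted p = 0.0215). The part of the spike-in level in the mtif3 difference was not tested. The other 3 mitochondrial factors, tufm, gfm1 and gfm2, were at -0.06 ± 0.13, 0.16 ± 0.27 and -0.07 ± 0.18.

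The precision sets what could have been seen. The SE of the members' light differences was 0.12 to 0.27, the median 95% interval reached 0.34 to either side, and for 66 of the 68 members the whole interval lay within 1 log2 unit of 0. The 2 exceptions were eif4e3, with an interval of -1.08 to -0.28, and eif4ebp3l, with 0.29 to 1.32. These intervals are of the main fit, which has no spike-in term, and do not cover the shifts that such a term gave. With the spike-in class as a term, for example, eef1a1b moved from -0.20 to 0.58. In simulated data on the 9301 probe sets, the light test recovered 85.0% of changes of 1 log2 unit but 0.5% of changes of 0.5. The time-of-day test recovered 98% of amplitudes of 1 and 31.5% of amplitudes of 0.5. The test of light by time of day recovered 25.5% and 0% of these. By the light test a difference of 0.5 was therefore mostly not detected in these simulations. The simulated noise was independent between arrays, without the spike-in difference, and the changed probe sets were drawn from all 9301. These shares therefore need not hold exactly for the members.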

How the data were processed

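RNA of 12 pools of zebrafish pineal glands was amplified in 2 rounds from an oligo(dT) primer, labelled with biotin and hybridised to 1-colour Affymetrix zebrafish arrays, per the labels' protocols, so signals come mainly from 3' ends. The deposited values are linear signal intensities made by the authors with GCOS and MAS5, per the submitters' processing notes, which give no versions. The array's genome build is not given in the sources used here, so no coordinates are printed. With the extreme 2% trimmed at each end, their mean lay between 200.035 and 200.042 on all arrays.

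From these, log2(signal + 13) was taken, where 13 is the 10th percentile of all signals, so changes of weak probe sets are understated. Probe sets with a mean log2 value at or above the 40th percentile (6.16) of 15502 non-control probe sets were kept, 9301 in all. Two-sided tests came from limma 3.58.1 under R 4.3.3, with an intensity trend in eBayes; p-values were adjusted by Benjamini-Hochberg over those 9301, with a threshold of 0.05. Light against dark had the 6 time points as a block (5 residual degrees of freedom), as the labels give each light pool a dark pool of the same time. Deviations of the 2 arrays of 1 time correlated with r between -0.05 and 0.30. Time of day used a cosine and sine of 24 h beside the light term (8 residual degrees of freedom), and light by time of day their products with light (6). Pairs of copies were compared by exact sign flips. The fits were tested on simulated data with 200 changed probe sets. Gene names come from the platform annotation, and the Entrez IDs of all 68 members were found in a RefSeq gene table, with 0 symbols changed. The members, their grouping and the gene lists were chosen with earlier results of these data known.

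Genes were named when called, when among the 3 smallest light p or 2 smallest time-of-day p of a factor group, when brightest in it, or when of 1 sign at all 6 times, and from each pathway list when called or else among the smallest p. All other members, and pdcd4a, were described after their values were seen, the members so that each is accounted for. The marker counts without the filter on low values were chosen after seeing the data. For a gene with several probe sets the brightest stands for it. Alternatives were other pseudocounts, filters, quantile normalization, no block, spike-in terms, no intensity trend and leaving out each time pair. The spike-in level was added to the main light fit. The spike-in class was fitted beside light and a 24 h cosine and sine, without the time-point block.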

Additional observations from a re-analysis of the deposited data

Results flagged for a closer look

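In 5 of 58 groups of 6 arrays (29 named probe sets in 2 groups), 1 array lay far from the nearest of the others, the gap making up most of the group's whole range on the log2 scale. Chance gives such a gap in about 1 in 20 groups when all 6 values come from the same normal distribution. The arrays of a group differ in circadian time, so that rate need not hold here. No pattern is read from a few such gaps. All 5 were low values. eif6 read 12.7 on the light array of CT6, with the next lowest light signal at 90.3, and this array sets the sign of its mean light difference. eif4enif1 read 118 in light at CT14, against 190 for the next light array, and eif4ebp2 read 1073 in light at CT14, against 1598. eif3ha read 153 in the dark at CT22, against 243 for the next dark array, and eef1e1 read 364 in the dark at CT22, against 549. In these last cases the dark array is the one with the high spike-in level, and for both genes it lies toward the light signals.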

How the results depend on the processing

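The call of eif3ha for light rested on the setting. The count of called members stayed at 1 with a pseudocount of 1 or 50, with a filter at a mean signal of 58 and after quantile normalization. It was 0 without a filter, 0 without an intensity trend, and 0 with the spike-in level or the spike-in class as a term, where the calls over all probe sets fell to 8 and 3. Leaving out 1 time pair gave 0 to 2 called members, 2 (eif3ha and eif4e3) without the CT22 pair and 0 without any of the others. Over all probe sets these runs called 71 to 351, and the fewest came without the CT10 pair. Without the time-point block, that is without the pairing, 0 members were called (eif3ha adjusted p = 0.0896) and 127 probe sets in all. The counts for time of day and for light by time of day were 0 under every alternative run. Of 441 alternative values of 29 named light differences, 34 had the other sign, 1 was newly called and 10 lost the call, all of eif3ha. None of the 464 alternative amplitudes was called. Of 120 alternative group medians 2 moved by more than their spread over times, that of eif3 to -0.24 with the spike-in level and that of eif5 to -0.11 with the spike-in class.

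With the spike-in class as a term, light differences of the other sign were 0.0695 for eif1axb, -0.0437 for eif2ak3, 0.28 for eif2b2, -0.23 for eif2s2, -0.0877 for eif4ebp2, -0.00546 for eif4enif1, 0.11 for eif5a, 0.58 for eef1a1b, 0.17 for eef1b2 and 0.25 for eef1e1. With the spike-in level they were 0.0225 for eif1axa, -0.0619 for eif2s2, -0.15 for eef1a1a, 0.27 for eef1a1b, -0.0802 for eef1a1l1 and 0.0232 for eef1e1. After quantile normalization they were 0.0362 for eif3ba and -0.14 for eef1a1l1. Without 1 pair, eif3ba was 0.0188, 0.0147, 0.00594 and 0.00525 without CT6, CT10, CT14 and CT22, and eif4ebp2 was -0.0665, -0.0378, -0.0524 and -0.0145 without CT2, CT6, CT10 and CT18. eif4e2rs1 was -0.0329 without CT22, eif6 0.15 without CT6, eef1a1b 0.0609 without CT18, and eef1a1l1 -0.0287 without CT10 and -0.10 without CT18. Another probe set gave 0.0154 for eif1axa, and 0.28 and 0.10 for eif1axb. Of the 29 named differences, 7 more kept their sign but shrank by over 1.5 times with the spike-in level, and 10 more with the spike-in class. Those that kept their sign and grew by over 1.5 times numbered 6 with the level and 4 with the class. Those that stayed within 1.5 times numbered 10 and 5. Fits with the spike-in class also lacked the time-point block, so the effects of these changes cannot be told apart there. The causes were not tested.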
